A study of Mus musculus with 16 samples.

Results

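The 10 transcription factor genes Gata1, Gata2, Zfpm1, Tal1, Lyl1, Lmo2, Mitf, Spi1, Cebpa and Runx1, which direct the mast cell, erythroid, megakaryocyte and myeloid lineages, were followed on 16 arrays of exosomal and cellular RNA. They were chosen by name, and every probe set whose only annotated gene symbol was one of them was taken, which gave 18 probe sets of the 45101 on the array and 10 of the 18193 genes with a probe set of 1 symbol. Runx1 had 6 probe sets, Gata2, Zfpm1 and Mitf had 2 each, and the other genes had 1 each. The groups, of 4 arrays each, were cells of the mouse mast cell line MC/9 in normal conditions (norm cell), MC/9 cells after oxidative stress with 125 µM H2O2 for 24 h (oxi cell), and exosomes, the small vesicles shed into the medium, of normal conditions (norm exo) and of oxidative stress (oxi exo). All groups came from this 1 cell line, grown in medium with serum and Rat T-Stim that had been depleted of exosomes. By their labels the cells had been given exosomes, but the study's methods treat them as the donors that got vehicle or H2O2, and they are taken as donors here. Whether all replicates were separate cultures is not stated, and the p-values measure the spread between these samples, which may be technical.

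GATA2 and GATA1 bind the same DNA motif, and in many blood lineages GATA1 takes over sites that GATA2 held before. FOG1, encoded by Zfpm1, is a cofactor of GATA1 that carries no DNA binding of its own to these sites, and it holds progenitors away from the mast cell fate. TAL1 and LYL1 are closely related basic helix-loop-helix proteins that join GATA factors through the bridging protein LMO2. MITF drives mast cell genes such as Kit and the proteases, PU.1 (Spi1) and C/EBPα (Cebpa) direct myeloid cells, and RUNX1 acts across blood lineages. In mast cells GATA2, MITF and PU.1 are kept on together.

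Signals are MAS5.0 values on a linear scale, which the authors scaled on each array to the same trimmed mean, and a difference between groups is given as log2 with its standard error (SE) and the adjusted p from limma. A probe set was called higher or lower where that adjusted p, taken over all 45037 probe sets tested, was below 0.05. An array's background was the 95th percentile of 197 probe sets of olfactory receptors and other genes of tissues unlike mast cells, and detection in a group meant a signal over background on each of its 4 arrays. The mean background was 13.8 in norm cell, 11.3 in oxi cell, 217 in norm exo and 239 in oxi exo, and 45.4%, 45.5%, 4.98% and 3.25% of all probe sets were detected in the same order. The spiked hybridization controls were 16.8 times brighter on norm exo than on norm cell arrays and 20.2 times on oxi exo than on oxi cell arrays, so that signals of exosomes and cells are on scales that differ. They were 0.820 times as bright on oxi cell as on norm cell arrays. Gapdh, probed at both ends of the transcript, had a 3′ over 5′ signal ratio of 0.832 ± 0.00767 (SD, n = 4) in norm cell, 0.851 ± 0.0220 in oxi cell, 1.64 ± 0.152 in norm exo and 1.89 ± 0.373 in oxi exo. The part of these differences in the results was not tested.

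MC/9 cells carried transcripts of 9 of the 10 factors. In norm cell and in oxi cell, 17 of the 18 probe sets were detected, beside 45.4% and 45.5% of all probe sets. The exception was Cebpa, which was below background on all 8 cell arrays. The cells also had all 7 defining mast cell markers above background on every array, among them Kit, the receptor of stem cell factor, at 1595 ± 15.9 (SD, n = 4) in norm cell. Markers of other lineages were mostly under background. In norm cell 1 of 6 erythroid markers was detected (Epor, the erythropoietin receptor, at 137 ± 17.03), as were 2 of 15 macrophage and neutrophil markers (the brighter was Cd14, at 47.6 ± 7.08) and 1 of 6 melanocyte markers (Sox10, at 23.1 ± 5.27). Of 6 megakaryocyte markers 3 were detected, and Itga2b, an integrin that mast cells of culture also carry, had 2208 ± 97.6. Of the lymphocyte markers, 1 of 8 for T cells and 0 of 8 for B cells were detected.

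**Figure D1:**
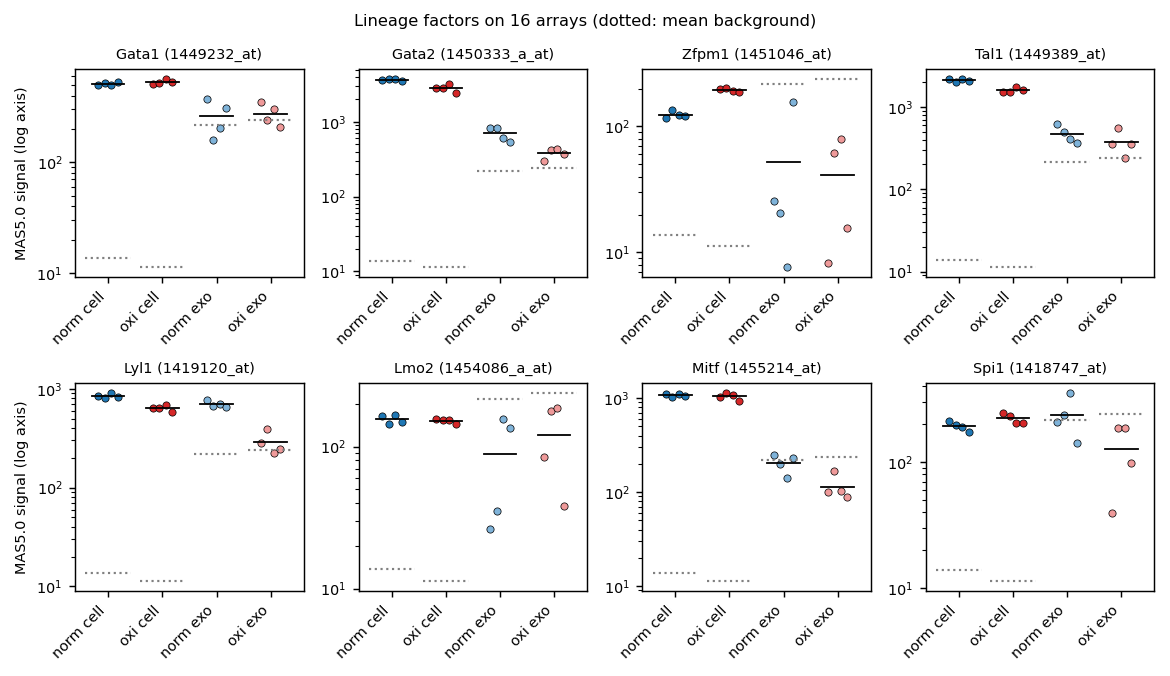
MAS5.0 signal (log axis) of 8 of the factors on the 16 arrays, 1 panel per factor with its probe set. Points are arrays, black lines group means and dotted lines the mean background of each group; Tal1, Lyl1 and Gata2 sat lower in oxi cell than in norm cell, Zfpm1 sat higher, and most exosome points lay near or under a background that was above 200.

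H2O2 lowered Gata2, Tal1 and Lyl1 in cells and raised Zfpm1, on the authors' scale. Of the 18 probe sets 4 were called lower, where 5.51% of all probe sets were, and 1 was called higher, where 4.31% were. In 6 of the 18 the groups did not overlap, beside 16.1% of all probe sets. The median log2 change was -0.06 over the 18 and -0.15 over all probe sets tested. By genes, with the brightest probe set of each, 3 of 10 were lower and 1 was higher, beside 5.46% and 6.42% of all genes. In RNA of a whole culture, fewer cells that express a gene and less of its RNA per cell cannot be told apart.

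Gata2, which maintains mast cells and their progenitors, was measured by 2 probe sets. The first, 1450333_a_at, had signals of 3648, 3771, 3786 and 3557 in norm cell and 2813, 2868, 3239 and 2451 in oxi cell. Each oxi cell array was below each norm cell array, and the signal fell by 23.3% (log2 -0.38, SE 0.06, adjusted p = 0.00185 from limma). The other, 1428816_a_at, had 1799.9, 1788, 1827 and 1743 in norm cell and 1386, 1400.4, 1480.2 and 1180.2 in oxi cell, a log2 change of -0.40 (SE 0.06, adjusted p = 0.00139). Both probe sets of Gata2 thus gave a fall of the same size, with the lowest value of oxi cell in replicate 4. Gata1, the factor of the erythroid, megakaryocyte and mast lineages, had 503, 517, 497 and 529 in norm cell and 507, 522, 568 and 527 in oxi cell. These groups overlapped, with a log2 change of 0.05 (SE 0.06, adjusted p = 0.679), and Gata1 was not called.

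The partners of the GATA factors moved in different directions. Tal1 had 2175, 2028, 2200.1 and 2064 in norm cell and 1524, 1537, 1764 and 1589.5 in oxi cell. It fell by 24.3% (log2 -0.40, SE 0.05, adjusted p = 8.77e-04), with a clear gap between the groups. Lyl1, its close relative, had 839, 799.8, 912 and 821 in norm cell and 642, 643, 689 and 585 in oxi cell, and fell by 24.1% (log2 -0.40, SE 0.06, adjusted p = 0.00126). Here too no array of one group reached the other. Lmo2, the bridging protein of this complex, had 165, 144, 166 and 149 in norm cell and 155, 154, 153 and 144 in oxi cell, which overlapped (log2 -0.04, SE 0.08, adjusted p = 0.853).

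Zfpm1 was the member that rose. Its probe set 1451046_at had 116, 135, 124 and 120.4 in norm cell and 198, 200.3, 191 and 186 in oxi cell, a rise of 56.8% (log2 0.65, SE 0.08, adjusted p = 6.57e-04) that every pair of arrays showed. The dimmer probe set of this FOG1 transcript, 1423603_at, had 19.5, 29.5, 17.3 and 26.6 in norm cell and 44.5, 36.0, 32.5 and 31.5 in oxi cell. Its groups did not overlap either, at a log2 change of 0.66, but with an SE of 0.23 and an adjusted p of 0.102 it was not called.

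The mast cell and myeloid factors outside the GATA complex gave no calls in cells. Mitf, through 1455214_at, had 1102, 1034, 1099 and 1049 in norm cell and 1037, 1141, 1076 and 937 in oxi cell, with a log2 change of -0.04 (SE 0.06, adjusted p = 0.803). Its dim probe set 1422025_at, between 23.2 and 65.8 on the cell arrays, had -0.46 with an SE of 0.24 (adjusted p = 0.289). Spi1, which encodes PU.1, had 211, 195, 191 and 174 in norm cell and 247, 233, 204 and 205 in oxi cell. It was higher in oxi cell in all 4 pairs, but the groups overlapped and the log2 change of 0.20 (SE 0.07) had an adjusted p of 0.114. All 6 probe sets of Runx1 stood above background in cells, with log2 changes between -0.13 and 0.03 and adjusted p between 0.397 and 0.956. Cebpa was at 0.36 to 12.3 on the cell arrays, under background, and gave no change that can be read.

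The directions above hold relative to the other probe sets of the same array. Over all probe sets the median moved from -0.15 to 0.14 when each array was scaled to the spiked controls, and quantile normalization put it at 0.0015. On the spike scale the log2 change of Gata2 was -0.10 and -0.11, of Tal1 -0.12 and of Lyl1 -0.11, with adjusted p of 0.287 to 0.417, so that none of the 4 falls was called. On that scale 5 probe sets were called higher and 0 lower, namely both of Zfpm1 (0.94 and 0.95) and those of Spi1 (0.49), Gata1 (0.34) and Mitf (0.25 through 1455214_at). Of all 45037 probe sets tested, 6325 were called higher and 469 lower on that scale. Lmo2 and all 6 probe sets of Runx1 had values above 0 on it without a call. With quantile normalization 4 were called lower, at log2 changes of -0.38 to -0.46, and 2 higher, both of Zfpm1. Of all 45037 probe sets 1818 were then lower and 2075 higher. Spike scaling moves all probe sets of an array by the same amount, so it cannot change the order among the factors. With quantile normalization, which could change it, Gata2, Tal1 and Lyl1 stayed below Gata1, Mitf (1455214_at) and Lmo2, and Zfpm1 above them.

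**Figure D2:**
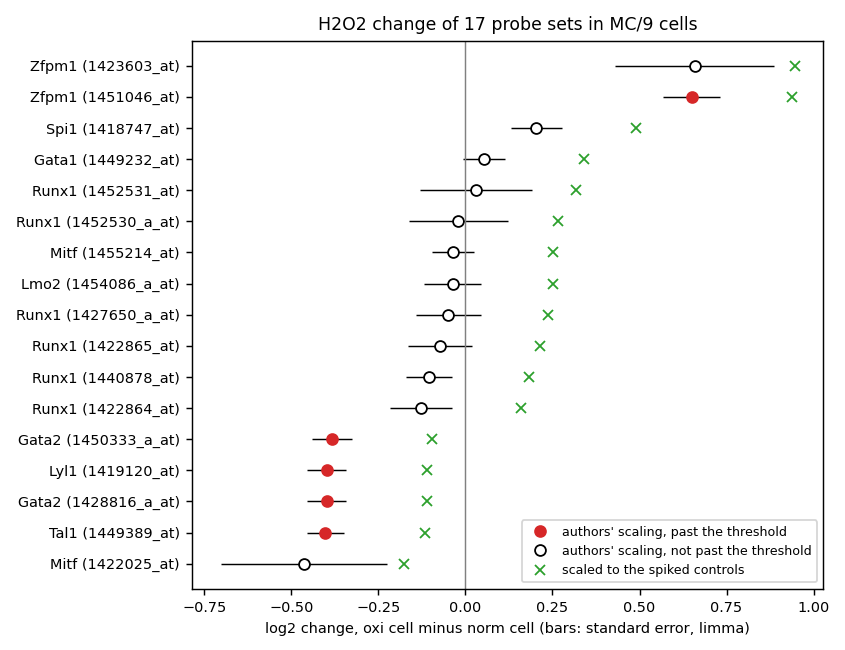
Log2 change of the 17 probe sets detected in cells, oxi cell minus norm cell (horizontal axis). Circles with SE bars are on the authors' scale, filled red where called, and green crosses are scaled to the spiked controls; the crosses of Gata2, Tal1 and Lyl1 lay at -0.10 to -0.12, near 0, and those of Zfpm1 at 0.94 and 0.95.

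A ratio of 2 probe sets on the same array does not depend on that array's scale. Such ratios, 3 in all, were set after the values had been seen and are given with no test. The log2 ratio of Gata2 (1450333_a_at) over Gata1 was 2.85 ± 0.07 (SD, n = 4) in norm cell and 2.41 ± 0.13 in oxi cell, a difference of -0.44. The ratio of Zfpm1 (1451046_at) over Gata2 went from -4.90 ± 0.07 to -3.87 ± 0.16, a shift of 1.03 or 2.05-fold. For Tal1 over Lmo2 it was 3.77 ± 0.05 and 3.40 ± 0.11. In none of the 3 did the groups overlap, though the pairs were picked with these values known, so this is no separate evidence. These differences restate the unequal changes in cells given above and do not say which of the paired transcripts moved.

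**Figure D3:**
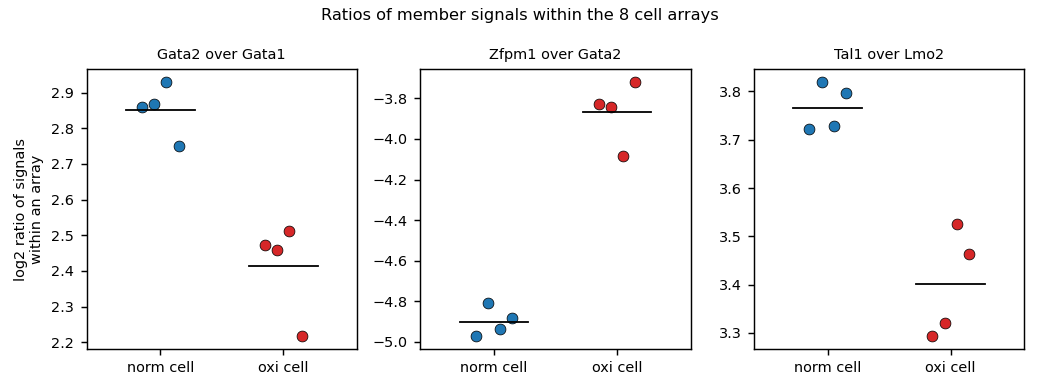
Log2 ratio of the signals of 2 factors on the same array (vertical axis, a range of its own in each panel) in the 4 norm cell and 4 oxi cell arrays. Lines are group means; Gata2 over Gata1 and Tal1 over Lmo2 were lower in oxi cell and Zfpm1 over Gata2 was higher, with no overlap.

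The 250 bases before the annotated starts of the 4 genes called in cells are shown because Gata2, Tal1 and Lyl1 fell to a like extent while Zfpm1 rose. They were read from RefSeq (build GRCm38.p6), which had promoters for 8 of the 10 factors, with 13 starts in all; Spi1 and Lmo2 had no entry in the table used. The first listed start is shown for Gata2 (chr6:88193641-88193890), Tal1 (chr4:115056176-115056425), Lyl1 (chr8:84701207-84701456) and Zfpm1 (chr8:122281891-122282140), all on the plus strand. Capitals mark a GATA motif (AGATAA on either strand) or an E-box (CANNTG, which basic helix-loop-helix proteins read).
Gata2: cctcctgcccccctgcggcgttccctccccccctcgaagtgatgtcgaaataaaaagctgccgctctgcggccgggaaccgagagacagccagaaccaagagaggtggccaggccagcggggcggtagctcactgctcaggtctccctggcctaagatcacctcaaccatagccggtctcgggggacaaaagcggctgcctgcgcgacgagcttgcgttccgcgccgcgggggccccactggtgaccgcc
Tal1: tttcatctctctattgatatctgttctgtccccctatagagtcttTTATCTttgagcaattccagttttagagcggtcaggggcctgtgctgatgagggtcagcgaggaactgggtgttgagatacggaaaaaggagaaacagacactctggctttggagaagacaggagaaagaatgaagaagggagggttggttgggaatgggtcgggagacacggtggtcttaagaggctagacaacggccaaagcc
Lyl1: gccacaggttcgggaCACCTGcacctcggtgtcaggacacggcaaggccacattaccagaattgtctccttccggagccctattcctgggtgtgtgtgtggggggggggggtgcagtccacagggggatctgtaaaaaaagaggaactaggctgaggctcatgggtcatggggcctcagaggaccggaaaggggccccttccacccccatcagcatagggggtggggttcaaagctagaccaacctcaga
Zfpm1: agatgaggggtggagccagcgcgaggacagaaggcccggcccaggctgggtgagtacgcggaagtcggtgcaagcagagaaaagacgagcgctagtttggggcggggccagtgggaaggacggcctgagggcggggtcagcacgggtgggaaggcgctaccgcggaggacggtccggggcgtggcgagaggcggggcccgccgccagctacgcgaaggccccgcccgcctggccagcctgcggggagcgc
The GATA motif occurred in 1 of the 13 starts, that of Tal1, with its first base at -205 from the start, and in 9.99% of all 32851 promoters. An E-box was present in 4 of the 13 starts, Lyl1 among them, against 66.2% of all promoters. CATGTG, a form of the E-box that MITF reads, was in 0 against 12.3%, and other single forms were not counted. CATGTG is contained in CANNTG. The missing matches say only that these letters are not in these windows.

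Among 49 other factors and cofactors of these lineages, a list set with earlier results known, 46 were measured, and 4 rose and 9 fell in cells, beside 6.42% and 5.46% of all genes. The list's median log2 change was -0.05, against -0.09 over all genes. The largest falls were those of Ets2 (579 ± 40.4 to 336 ± 53.5, log2 -0.80, adjusted p = 1.89e-04) and Zeb2, a repressor (172 ± 18.8 to 112 ± 5.36, log2 -0.62), followed by the ETS factor Elf1 (log2 -0.45). The largest rises were those of Etv6, an ETS repressor (353 ± 13.6 to 485 ± 40.6, log2 0.45, adjusted p = 0.00133), of Stat5a, a factor of cytokine signalling (log2 0.31), and of Kdm1a, a histone demethylase that works with GFI1B (718 ± 37.8 to 879 ± 20.1, log2 0.29).

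Of 14 genes known as mast cell targets of these factors 12 were measured. In cells 7 fell and 1 rose, beside 5.46% and 6.42% of all genes. Their median log2 change was -0.30, against -0.09 over all genes. The changes of both lists are on the authors' scale. On the spike scale each lies higher by the same amount, as did the median of all probe sets (from -0.15 to 0.14). The mast cell tryptase Tpsb2 went from 2245 ± 44.7 to 1045 ± 64.9 (log2 -1.11, adjusted p = 1.91e-05), the chymase Cma1 from 5826 ± 208 to 3611 ± 352 (log2 -0.69) and the granzyme Gzmb from 317 ± 17.7 to 230.0 ± 26.2 (log2 -0.47). Hdc, which makes histamine, rose from 804 ± 46.9 to 1198 ± 45.6 (log2 0.58, adjusted p = 3.01e-04). Of the markers of other lineages, 1 of 6 megakaryocyte markers was called lower in cells, and 0 of the erythroid, macrophage and neutrophil, T cell, B cell and melanocyte markers were called in either direction by limma. The summed signal of the 6 megakaryocyte markers was 2203 to 2415 in norm cell and 1601 to 1858 in oxi cell, nearly all of it Itga2b, and that of the 6 erythroid markers was 140.3 to 193 and 121 to 138. For the 15 macrophage and neutrophil markers the sums were 149 to 179 and 160.2 to 198, and in each group 8 of them were above background on no array. The part of this in the changes of the factors was not tested.

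Fewer of the factors were above background on exosome than on cell arrays, and so were fewer of all probe sets. In norm exo 7 of 18 probe sets were detected, beside 4.98% of all probe sets. These were Gata2 (both), Tal1, Lyl1 and 3 of Runx1. In oxi exo 3 of 18 were detected, beside 3.25% of all, namely Gata2 (1450333_a_at), Tal1 and Runx1 (1422864_at). The detection is bound to the background chosen. At its 90th percentile 7 were detected in each exosome group, and at its 99th percentile 2 in norm exo (Gata2 and Lyl1) and 0 in oxi exo, while the cells kept 16 and 17.

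Against norm cell, 9 of the 18 probe sets were called lower in norm exo and 3 higher, beside 19% and 57.7% of all probe sets, and against oxi cell 11 were lower and 3 higher in oxi exo, beside 19.4% and 60.8%. The median difference of the 18 was -1.14 in normal conditions and -1.02 after H2O2, where that of all probe sets was 2.23 and 2.67. The groups did not overlap in 11 of the 18 in normal conditions and 14 after H2O2, beside 69.5% and 75% of all probe sets. By genes 6 of 10 were lower and 1 higher in normal conditions (25% and 53.2% of all genes), and 7 and 1 after H2O2 (26.7% and 54.4%). Scaled to the spiked controls, 17 were lower and 0 higher in both comparisons. Of all 45037 probe sets, 22917 were lower and 1306 higher on that scale in normal conditions, and 22295 and 1867 after H2O2. With quantile normalization 9 were lower and 3 higher in normal conditions (9974 and 8352 of all), and 7 and 3 after H2O2 (10682 and 9318 of all). These comparisons use the same arrays as those of H2O2 and are no separate evidence.

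Gata2 and Tal1 were lower in exosomes than in cells on every array. Gata2 (1450333_a_at) had 838, 818, 614 and 543 in norm exo, and differed from norm cell by log2 -2.42 (SE 0.17, adjusted p = 5.41e-06). Tal1 had 620.5, 489.7, 409 and 369, which differed from norm cell by -2.19 (SE 0.19, adjusted p = 1.57e-05). The sizes depend on the scaling, at -0.96 for Gata2 and -0.78 for Tal1 with quantile normalization and -6.48 and -6.26 on the spike scale, all called. After H2O2 the differences were -2.91 for Gata2 and -2.15 for Tal1. With quantile normalization they were -0.99 and -0.42, of which that of Tal1 was not called (adjusted p = 0.311), and on the spike scale -7.24 and -6.48. Gata1 was above background on only 2 norm exo and 3 oxi exo arrays, with 373, 161, 204 and 308 in norm exo and 351, 241, 302 and 207 in oxi exo. It was lower than in cells by log2 -1.05 and -0.98 (adjusted p = 0.00433 and 0.00619), but by -0.30 and 0.04 with quantile normalization, neither called, and by -5.11 and -5.31 on the spike scale.

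Lyl1 had a level in norm exo close to that of the cells. Its signals were 767, 668, 709 and 656 there, just below the lowest norm cell array, and the log2 difference of -0.27 (SE 0.18, adjusted p = 0.182) was not called. This closeness holds for the authors' scale, since the difference was 1.08 with quantile normalization (adjusted p = 4.68e-04) and -4.33 on the spike scale. Mitf (1455214_at) had 245, 201, 141 and 228 in norm exo and 99.3, 166, 102 and 89.5 in oxi exo. It was under background on all 4 oxi exo arrays, and at least 4.38-fold lower there than in oxi cell, taken against that background. This bound was not tested and is on the authors' scale only. The limma fit of the signals themselves, which were under background in oxi exo, gave log2 -3.24 (adjusted p = 2.23e-05).

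The probe sets of Runx1 disagreed on exosomes. Through 1422864_at the gene had 351, 408, 539 and 523 in norm exo, which overlapped with 517, 560.3, 584 and 612 in norm cell (log2 -0.34, adjusted p = 0.142), though the difference was 0.85 with quantile normalization and was called. Through 1422865_at it was not called in norm exo (log2 -0.56, adjusted p = 0.0794) and was lower in oxi exo than in oxi cell (log2 -1.003, adjusted p = 0.0118), with 2 oxi exo arrays above background and -0.30 with quantile normalization, which was not called. Through 1440878_at and 1427650_a_at it was under background on all exosome arrays. Taken against that background, it was at least 2.68-fold and 1.44-fold lower than in norm cell and 2.25-fold and 1.26-fold lower than in oxi cell. These bounds for the gene were not tested and are on the authors' scale only. Through 1452531_at it was higher, with 488, 347, 332 and 401 in norm exo against 32.7, 50.1, 48.1 and 49.5 in norm cell (log2 3.12, SE 0.32, adjusted p = 4.31e-05). It was higher too through 1452530_a_at in oxi exo, at 254 ± 46.9 against 103 ± 29.0 in oxi cell (log2 1.33, SE 0.31, adjusted p = 0.00342) with 3 arrays above background, but at -3.00 on the spike scale. For 1452531_at the spike scale turned the direction, since its normal difference was -0.94 on it, and that after H2O2 went from 2.57 to -1.76. Which transcripts of Runx1 each probe set reads was not tested.

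**Figure D4:**
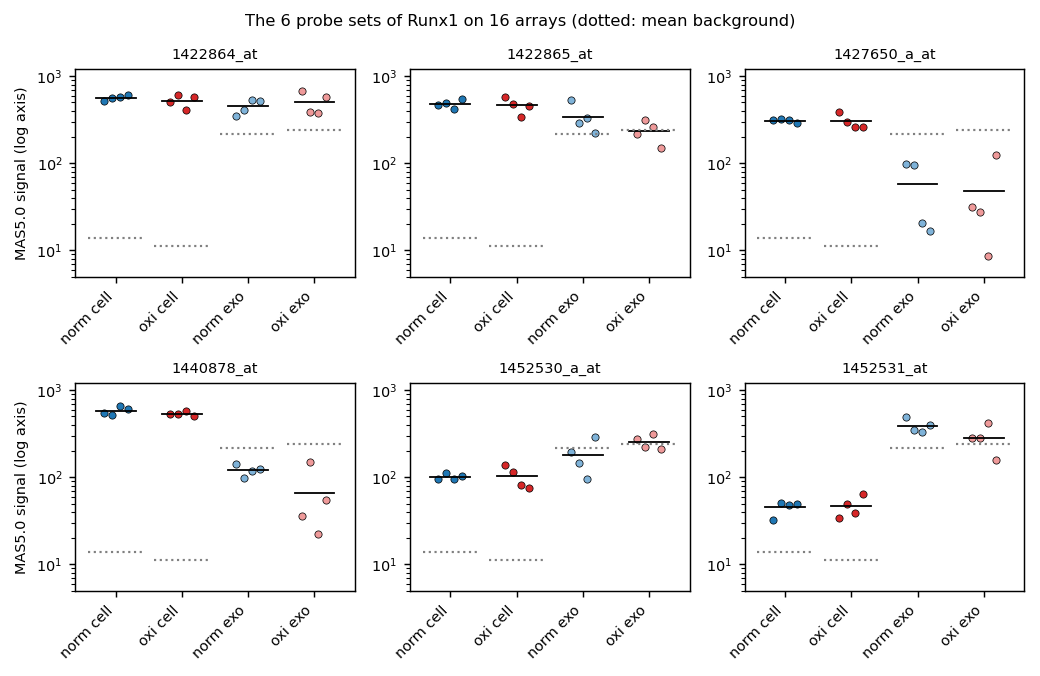
MAS5.0 signal (log axis) of the 6 probe sets of Runx1 on the 16 arrays, with group means (black lines) and mean backgrounds (dotted). The norm cell and oxi cell arrays overlap in every panel, while the exosome arrays lie level with the cells in 1422864_at, under background in 1427650_a_at and 1440878_at, and above the cells in 1452531_at.

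Several calls between exosomes and cells rested on signals under background in exosomes. Zfpm1 (1451046_at) had 25.6, 20.5, 7.63 and 157 in norm exo, all under background, and its log2 difference of -2.13 (adjusted p = 0.0117) was -1.51 without replicate 3 (adjusted p = 0.0532) and 0.81 with signals floored at background. Lmo2 was under background on all 8 exosome arrays, and its difference of -1.22 (adjusted p = 0.0380) was -0.75 without replicate 1 and -0.96 without replicate 2, neither called, and 0.47 with the floor. Mitf (1422025_at) was called higher in norm exo, at 144 ± 68.2 with 1 array above background (log2 1.44, adjusted p = 0.0131), and was not called without replicate 2 (1.02, adjusted p = 0.0705). For Spi1 in oxi exo, under background on all 4 arrays, the difference of -1.04 from oxi cell had an adjusted p of 0.0495, which rose to 0.215 without replicate 1 and 0.104 without replicate 4. Cebpa was called higher in exosomes in both conditions while under background in every group, so these calls give no level. Without replicate 1, 3 or 4 its call in normal conditions was lost (adjusted p = 0.0719, 0.182 and 0.206), and without replicate 2 or 3 that after H2O2 (adjusted p = 0.106 and 0.0837). No fold can be given for Zfpm1, Lmo2 and Spi1 where the exosome background lay above their cell signals.

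H2O2 lowered Lyl1 in exosomes. It had 767, 668, 709 and 656 in norm exo and 280.1, 394, 224 and 246 in oxi exo, where 3 of 4 arrays were above background, and fell by 60.0% (log2 -1.32, SE 0.25, adjusted p = 0.00746) without overlap. With quantile normalization it was -1.03 (adjusted p = 0.0925) and not called. Of the 18 probe sets this 1 was called lower and 0 were called higher by limma, beside 1.7% and 0.0311% of all probe sets, and 3 had an unadjusted p below 0.05. The groups did not overlap in 2 of the 18, beside 6.57% of all probe sets, and these were Lyl1 and Gata2 (1450333_a_at). The latter had 838, 818, 614 and 543 in norm exo and 301, 416, 435 and 372 in oxi exo. Its log2 change of -0.87 (SE 0.25) had an adjusted p of 0.112, and was called with log2(signal + 100), with the filter on low signals and with the floor at background.

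The remaining factors gave no call for H2O2 in exosomes. Tal1 had 359, 553, 238 and 359.8 in oxi exo, a log2 change of -0.36 (SE 0.27, adjusted p = 0.722) with overlap. Gata2 through 1428816_a_at was 343 ± 26.2 in norm exo and 283 ± 60.3 in oxi exo (log2 -0.30, adjusted p = 0.790). Runx1 (1422864_at) was 455 ± 90.7 and 504 ± 147 (log2 0.12, adjusted p = 0.929). Spi1 had 207, 239, 356 and 141 in norm exo and 39.4, 186, 187 and 97.5 in oxi exo, but 0 oxi exo and 2 norm exo arrays were above background, so that no size of change can be given. The medians of the log2 change were -0.40 over the 18 and 0.06 over all probe sets.

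In the lists, calls for H2O2 in exosomes came among the targets and not among the partners, of which few were detected there. Of the 12 mast cell targets 6 were called lower and 0 higher in exosomes after H2O2, beside 2.25% and 0.022% of all genes. Among those called, Ms4a2 (942 ± 284 to 244 ± 74.2, log2 -1.95, adjusted p = 6.77e-04) and Fcer1a (1719 ± 439 to 475 ± 189, log2 -1.91) encode chains of the high-affinity IgE receptor. Slc18a2, a monoamine transporter of granules, went from 402 ± 68.4 to under background on all 4 oxi exo arrays, at least 1.67-fold lower. None of the 46 partners was called by limma, but only 2 were detected in each exosome group. Of the 12 targets 7 were detected in norm exo and 2 in oxi exo. A fall from under background has no size that can be read, so the counts of the lists cannot be set against each other here. On the authors' scale, where the spiked controls were 16.8 times brighter in norm exo, Bach1, a repressor that heme releases, was higher in norm exo than in norm cell (1261 ± 164 and 337 ± 10.6, log2 1.89). Against cells 22 partners were lower and 11 higher in norm exo, and 22 and 15 in oxi exo, beside 25% and 53.2% of all genes in norm exo and 26.7% and 54.4% in oxi exo. Of the partners called higher, Bach1 alone was detected in exosomes. Zfpm2, Id3, Irf4, Irf8, Tfec and Mecom were above background on no exosome array, so their calls give no level. Id2, an inhibitor of the helix-loop-helix proteins, had one of the largest differences from cells among the partners (249.6 ± 56.2 against 5330 ± 297 in norm cell, log2 -4.45). Of the targets 10 were lower and 0 higher in norm exo, and 11 and 1 in oxi exo, against the same shares of all genes, with Kit under background in both. The 1 target called higher was Mcpt4, which was under background on every oxi exo and oxi cell array, so this call gives no level.

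The effect of H2O2 on the factors was not shown to differ between exosomes and cells. A test of the 8 differences within replicate numbers called 0 of the 18 probe sets by limma, beside 1.47% of all probe sets lower and 0.0933% higher, and 3 had an unadjusted p below 0.05. Lyl1 had a log2 change of -1.32 in exosomes and -0.40 in cells, a difference of -0.92 (SE 0.26, adjusted p = 0.139). The other 2 were Spi1 and Mitf (1455214_at), with adjusted p of 0.257 and 0.300. Both were under background on all 4 oxi exo arrays, so that neither their change in exosomes nor its difference from the cells has a size that can be read. For Tal1 the difference was 0.05 (SE 0.27) and for Gata2 0.10 and -0.49 (SE 0.24 and 0.25), so that the exosome arrays leave room for sizeable differences either way.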

How the data were processed

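Total RNA of exosomes and MC/9 cells was measured on 16 Affymetrix mouse expression arrays of 45101 probe sets, whose version the sample labels and the paper name differently. The deposited signal intensities are linear values that the authors made with MAS5.0 (GCOS 1.2 per the labels) and scaled to a mean of 100 with 2% trimmed at each end. No reads were counted, so the number of arrays limits the precision. After 64 controls were left out, 45037 probe sets were tested. Gene symbols were those of the platform annotation, with 34945 probe sets of 1 symbol, 932 of several and 9160 of none.

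The factors, lists and tests were chosen with earlier results of these data known. Each comparison was a limma fit of log2 signals (limma 3.58.1 under R 4.3.3, lmFit and eBayes with trend), using only the arrays compared and the replicate number as a block, since the methods name a paired test, and p was adjusted by Benjamini-Hochberg at a threshold of 0.05, two-sided. The difference of effects was fitted on 8 within-number differences. Background was set from 197 probe sets of 172 genes. A bound of "at least N-fold" is the mean of the brighter group over the background of the dimmer one. A gene in a list was represented by its probe set of highest mean log2 signal. Genes named beside the 10 factors were, per list and comparison, up to 3 of largest rise and fall among those called, moved one way in 4 pairs and detected in a group, the brightest marker of each cell type, and the 2 probe sets most correlated with each of 3 factors. Alternatives were no block, quantile normalization, scaling to 18 probe sets of spiked controls, a filter above the median signal, the methods' paired test (linear signals), log2(signal + 100), signals floored at background, each replicate number left out, and other background percentiles. The within-array ratios were added after the data were seen. The fits were tested on simulated data. Tables and figures were made in Python 3.11.15 with pandas 2.3.3, numpy 2.4.6 and matplotlib 3.10.9.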

Additional observations from a re-analysis of the deposited data

Results flagged for a closer look

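Over 72 groups of 4 arrays (18 probe sets in 4 groups), 3 held 1 array far from the others, where chance gives about 1 in 20. Zfpm1 (1451046_at) in norm exo had 157 in replicate 4 and 7.63 to 25.6 in the others, all under background. Mitf (1455214_at) in oxi exo had 166 in replicate 2 and 89.5 to 101.8 in the others, also under background. Runx1 (1452531_at) in norm cell had 32.7 in replicate 1 and 48.1 to 50.1 in the others, all above background.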

How the results depend on the processing

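The 5 calls in cells (4 lower, 1 higher) were made without a replicate block, with the filter, with log2(signal + 100), with quantile normalization, with the floor and without each replicate number (4 to 4 lower, 1 to 1 higher). In cells, quantile normalization called 2 higher, spike scaling 5 higher and 0 lower, the floor 3 higher, and the methods' paired test 0 in either direction. Of all probe sets the floor called 2490 of 27660 higher in cells. The paired test called 2 higher and 3 lower of 45037, so its 0 is not particular to the factors. For H2O2 in exosomes, 0 were lower with quantile normalization and the paired test, which called 276 and 0 of all 45037 probe sets lower. With the filter, log2(signal + 100) and the floor 2 were lower, beside 935 of 22518, 1000 of 45037 and 951 of 11354. Without each replicate number 1 was lower and 0 higher. Between norm exo and norm cell, spike scaling gave 0 higher and 17 lower, the floor 7 higher and the paired test 1 higher. Of all probe sets the floor called 20391 of 27505 higher there and the paired test 7794 of 45037. Without each replicate number 2 to 3 were higher and 8 to 9 lower. Between oxi exo and oxi cell, spike scaling gave 0 higher and 17 lower, quantile normalization 7 lower, the floor 6 higher and the paired test 1 higher. Here the floor called 21097 of 27674 probe sets higher and the paired test 9710 of 45037. Without each replicate number 2 to 3 were higher and 10 to 11 lower. For the difference of effects, the floor called 3 lower, beside 1705 of 29538 probe sets. The other settings run called 0 (without each replicate number 0 to 0), and the paired test was not run. Over all probe sets the 662 lower calls for the difference of effects became 6 without replicate 2. The cause of these shifts was not tested.

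Differences between norm exo and norm cell that reversed were, with the floor, Zfpm1 (0.81) and Lmo2 (0.47); scaled to the spiked controls, Mitf 1422025_at (-2.62), Cebpa (-1.78) and Runx1 1452531_at (-0.94); and with quantile normalization Cebpa (-0.44). Between oxi exo and oxi cell they were, with the floor, Zfpm1 (0.30) and Spi1 (0.11); on the spike scale, Cebpa (-0.79), Runx1 1452530_a_at (-3.00) and Runx1 1452531_at (-1.76); and with quantile normalization Gata1 (0.0365). The floor left out probe sets at background on every array compared. The deviations of same-numbered arrays correlated at -0.17 to 0.45, not above 0.1 in every pair, and such arrays share only a number. Arrays of different numbers reached 0.158 between norm cell and oxi cell and 0.533 between norm exo and oxi exo. Only 3 of 8 cell arrays and 2 of 8 exosome arrays correlated best with their own number there, so the numbers were not shown to mark pairs. Without the block the counts were 1 higher and 4 lower in cells, 0 and 1 in exosomes, 3 and 9 for norm exo and 3 and 10 for oxi exo against cells, where Lmo2 (normal, adjusted p = 0.0570) and Spi1 (H2O2, adjusted p = 0.0521) were not called. Detection in norm exo was 2 at the 99th percentile of background, and in oxi exo 7 at the 90th and 0 at the 99th. The high background of the exosome arrays limits what can be read of the dim factors there.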

Other observations

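Over the 8 cell arrays, the probe sets most like the 3 factors of largest called change were found among 18138 detected probe sets of 1 symbol. Zfpm1 (1451046_at) was most like Rap2a (Pearson r = 0.992), a small GTPase that went from 80.5 ± 7.34 in norm cell to 137 ± 6.18 in oxi cell, and Dnase2b (r = 0.991), a nuclease that went from 189 ± 15.7 to 319 ± 14.4. Tal1 was most like Itm2c and Use1 (r = 0.994 each), which fell from 3030.5 ± 129 to 2319.7 ± 129 and from 804 ± 42.9 to 615 ± 40.2. Gata2 (1428816_a_at) was most like Birc2 (r = 0.994), an inhibitor of apoptosis that fell from 274 ± 7.45 to 204 ± 21.2; the next match carries the symbol of a microRNA gene, and its value is not given. The 8 arrays fall into the 2 conditions and share the cell line and the scaling, and 175 to 274 probe sets had an r above 0.95 with each of these factors, so the values are a description only.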
